A study of Mus musculus with 25 samples.

Results

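The genes described here encode the proteins of the cytosolic ribosome, whose mRNA was sequenced from hippocampus of Scn1a+/- mice, in which 1 copy of the gene is disrupted, and of wild-type controls. Members were all counted symbols made of Rps or Rpl and a number, with or without further letters, plus Rpsa and the stalk genes Rplp0, Rplp1 and Rplp2, leaving out the Rps6k kinases and symbols with the pseudogene ending. Of 24421 counted genes, 88 symbols met that pattern and 84 also had a CPM (the count scaled to a common library total) of 1 or more in at least 3 libraries. The 4 left out were Rpl10l and Rps27rt, both listed at 0 in every library, Rpl26 with at most 0.0637 CPM and Rpl39l with at most 0.446 CPM. All 84 members were among the 15912 genes tested. They comprised 34 symbols of the small (40S) subunit and 50 of the large (60S) subunit. Among them Rps19bp1 encodes a protein that binds Rps19 and is not a ribosomal protein. Rpl7l1 is a factor of ribosome assembly, and RefSeq lists Rps4l as a transcribed pseudogene.

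The series set Scn1a+/- mice, a model of Dravet syndrome, against wild-type mice in the cross [129S6/SvEvTac x C57BL/6]F1 (F1 below) and on pure 129S6/SvEvTac (129S6 below), at postnatal days 14 (P14) and 24 (P24). In F1 at P24 there were 3 libraries from Scn1a+/- mice with seizures, 2 from Scn1a+/- mice without seizures and 3 from wild type. In 129S6 at P24 there were 3 libraries labelled Scn1a+/- and 3 labelled wild type. The P14 groups held 3 Scn1a+/- and 3 wild-type libraries of F1, and 3 Scn1a+/- and 2 wild-type libraries of 129S6. The labels name no treatment, and all groups other than the seizure group were labelled as having no seizures. Each library was a pool of hippocampi, from 3 to 4 mice in the seizure group and from 12 to 16 mice in every other group, so seizures and pool size cannot be told apart.

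Totals ran from 7436442 to 25520050 counts over the 25 libraries, and the members took 0.310% to 0.562% of each. Scn1a, the disrupted gene, averaged 79.9 ± 10.3 CPM in the seizure libraries (SD, n = 3), 104 ± 16.0 CPM in P24 F1 Scn1a+/- without seizures (n = 2) and 127 ± 2.79 CPM in P24 F1 wild type (n = 3). It was also lower in Scn1a+/- than in wild type in both strains at P14. In P24 129S6 it went against the labels, at 140 ± 4.95 CPM in the libraries labelled Scn1a+/- and 110 ± 0.740 CPM in the wild-type ones by label (n = 3 each). Each genotype difference in P24 129S6 is therefore given by label only. Strain and age comparisons average the genotypes and do not depend on these labels.

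Ribosomal proteins clothe the ribosomal RNA of the small and large subunits, and most of them stand in each ribosome in a single copy. Their mRNAs are known for a short run of pyrimidines at the 5′ end, the terminal oligopyrimidine (TOP) motif, through which mTOR signalling controls their translation, so that mRNA level and protein output need not move together. Mammalian genomes also carry many processed pseudogenes of these genes, intronless copies whose exons are close to those of the parent gene, and neurons use ribosomes both in the cell body and near synapses.

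Start-site sequences of 10 members that the results turn on are shown because the pyrimidine run is the feature the family is known for. Each is a window of 30 bases in the direction of transcription from the RefSeq promoter table for GRCm38.p6, the assembly of mm10, which is the genome of C57BL/6J. Capitals mark the longest unbroken run of C and T within 30 bases either side of the annotated start. Such a run need not be the TOP motif, because it may lie away from the 5′ end of the mRNA. The runs shown for Rps3a1, Rps15a, Rps25 and Rps27l end before the annotated start. The windows are chr5:115559467-115559496 on the plus strand for Rplp0, chr3:86142669-86142698 on the minus strand for Rps3a1, chr17:24720055-24720084 on the plus strand for Rps2, chr7:118116143-118116172 on the minus strand for Rps15a and chr14:18270967-18270996 on the minus strand for Rpl15. They are chr3:28805499-28805528 on the plus strand for Rpl22l1, chr9:66946064-66946093 on the plus strand for the first of the listed starts of Rps27l, chr11:114668568-114668597 on the plus strand for Rpl38, chr9:44407684-44407713 on the plus strand for Rps25 and chr4:86857349-86857378 on the minus strand for Rps6.
Rplp0: ggaccgcctggTTCTCCTataaaaggcaca
Rps3a1: agtgtcgcgagaTTCTTaaagccggaaggg
Rps2: cgagatctcgcgCTTCTTggagcactataa
Rps15a: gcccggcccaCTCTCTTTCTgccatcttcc
Rpl15: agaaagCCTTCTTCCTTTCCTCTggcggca
Rpl22l1: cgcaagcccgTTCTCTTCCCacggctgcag
Rps27l: ctcctctccaCTCCTCCCCgccgcctctat
Rpl38: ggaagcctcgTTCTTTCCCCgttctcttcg
Rps25: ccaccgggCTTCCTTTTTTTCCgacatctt
Rps6: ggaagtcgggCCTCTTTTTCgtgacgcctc
The longest of these runs was 17 bases, in Rpl15, and the shortest was 5 bases, in Rps3a1. Of the 84 members, 63 had an entry in the promoter table, with 75 starts in all. A run of at least 8 pyrimidines lay within 30 bases of 46.7% of these starts, against 21.9% of the starts of all genes tested and 22.9% of all starts in the table. The letters CCGGAAG, the core bound by factors of the Ets family, were searched on both strands from 250 bases before to 50 bases after the start. They were found at 33.3% of the members' starts, 14.7% of the starts of all genes tested and 8.86% of all starts. Among the windows shown, Rps3a1, Rps2, Rpl15, Rpl38, Rps25, Rps6 and this start of Rps27l had a CCGGAAG within the longer stretch, and Rplp0, Rps15a and Rpl22l1 had none. A run or a match is only one of letters, and neither the 5′ end of the mRNA nor any binding was measured.

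Counted levels differed over 1238-fold among the members when given per kilobase of coding sequence. Rplp1, an acidic protein of the ribosomal stalk (chromosome 9, 61913283 to 61914510, GRCm38.p6), had the highest mean at 715 CPM per coding kilobase. Rps3, which lines the mRNA entry channel of the small subunit (chromosome 7, 99477896 to 99483709), had 506. The lowest were Rpl3l, the striated-muscle paralog of Rpl3 (chromosome 17, 24727826 to 24736143), at 0.578, Rpl24 at 1.98 and Rpl5, which carries 5S ribosomal RNA into the large subunit, at 2.34 CPM per coding kilobase. Rplp1 is present in more than a single copy per ribosome and Rpl3l stands in for Rpl3 in muscle, so the ends of this range are not proteins in equal number.

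That order moved with how much of each coding sequence is unique in the genome. The unique share of a gene is the percentage of 50-base stretches of its GENCODE vM39 coding sequence with no other exact copy in GRCm39, and it had a median of 12.3% over 83 members and of 100% over the 14555 tested genes with a value. Rpl37rt had no unique share. The value was 0% in 27 members, and 50% or more in 17. Those 17 members had a median level of 312 CPM per coding kilobase, the members below 50% had 18.8, and all genes tested had 17.0. Across the 83 members, which share libraries, the unique share and the level correlated with a Pearson r of 0.54 (log2 level) and a Spearman rho of 0.66. Rps3 was unique over 91.6% of its stretches, but Rplp1, the highest of all, over only 36.9%. Rpl5 and Rpl24 were at 0%. Whether reads that match several places were dropped in the counting is not given in the sources used here, and its part in the levels was not tested. A level of a member with a low unique share is therefore uncertain. The unique share was read from the C57BL/6J genome alone, so in 129S6 it may differ, and comparisons between strains are uncertain for such members too.

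**Figure D1:**
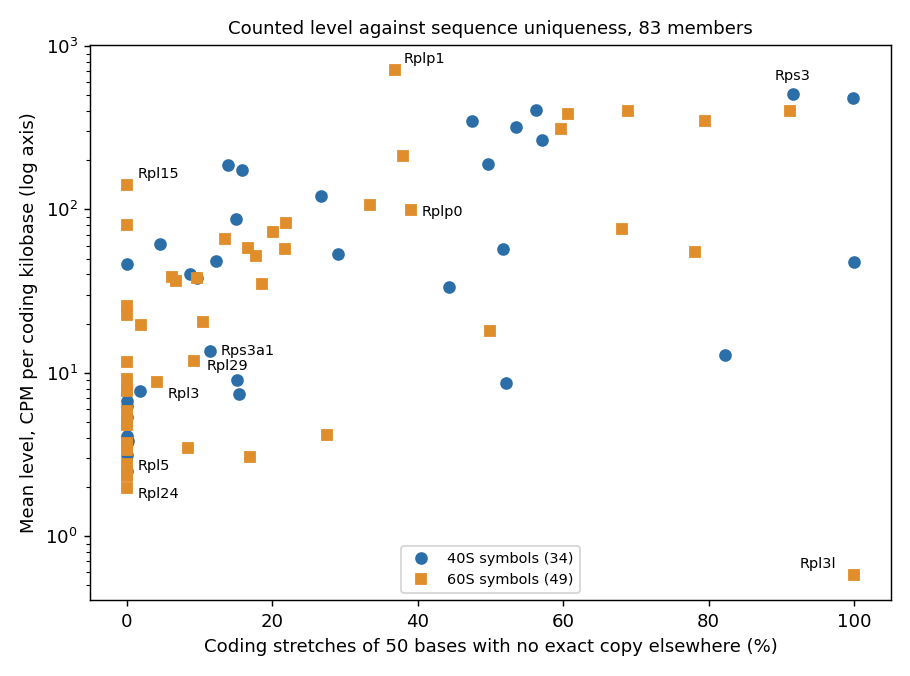
Mean level of 83 members over 25 libraries (CPM per coding kilobase, log axis) against the percentage of 50-base coding stretches with no exact copy elsewhere, with 40S and 60S symbols in separate marks. The 17 members at 50% or more have a median of 312 CPM per coding kilobase, and the 27 members at 0% lie on the left edge.

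Paralogs of canonical members show the same spread. Rpl22, a large-subunit protein also known as a regulator in T cells, had 400 CPM per coding kilobase with a unique share of 69.0%, and its paralog Rpl22l1 had 73.0 with 20.1%. Rps27l, a p53 target, had 56.9 with 51.7%, while its partner Rps27 had 6.73 with 0%. Rpl36al had 35.0 with 18.6%, and Rpl36a 5.01 with 0%. Rpl7 and Rpl7l1, a factor of ribosome assembly, had near levels of 57.0 and 55.0 CPM per coding kilobase, with unique shares of 21.8% and 78.1%. In each of the pairs other than Rpl7 with Rpl7l1 and Rpl3 with Rpl3l, the member with the higher unique share had the higher counted level.

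The strain comparison separated a few members from a common shift that was close to 0. The median of the members differed by 0.06 on the log2 scale between F1 and 129S6 at P24, where the median of all genes tested was -0.01, and by 0.04 at P14. Rps3a1, Rpl29 and Rpl3 stood apart from it, between 3.45 and 4.22 log2 units higher in F1 over both ages. They were chosen for this difference in earlier work on the same libraries, so their values follow as a description with no test.

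Rps3a1, a small-subunit protein near the mRNA exit (chromosome 3, 86137940 to 86142668, unique share 11.4%), had 12.8 to 23.5 CPM in the 14 F1 libraries, with a median of 17.9. It had 0.748 to 1.40 CPM in the 11 libraries of 129S6, with a median of 1.01. Every F1 library was far above every 129S6 library, whatever the age, genotype or seizures. Averages were 18.3 ± 2.55 CPM in P24 F1 without seizures (SD, n = 5) and 1.02 ± 0.250 CPM in P24 129S6 (n = 6), a log2 difference of 4.17 ± 0.16 (SE). At P14 they were 17.9 ± 1.35 CPM in F1 (n = 6) and 0.929 ± 0.242 CPM in 129S6 (n = 5), a log2 difference of 4.22 ± 0.17. Behind the 129S6 values stand only 8 to 26 counts per library.

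Rpl29, a large-subunit protein with a heparin-binding tail (chromosome 9, 106428889 to 106431568, unique share 9.28%), had 6.48 to 12.6 CPM in the F1 libraries, with a median of 9.76. In 129S6 it had 0.188 to 0.949 CPM, with a median of 0.517, from 2 to 15 counts per library. The log2 difference was 4.08 ± 0.24 at P24 and 4.03 ± 0.24 at P14. Rpl3, which reaches the peptidyl transferase centre (chromosome 15, 80077781 to 80083406, unique share 4.14%), had 13.4 to 22.2 CPM in F1 with a median of 17.6, and 0.995 to 1.99 CPM in 129S6 with a median of 1.63. Its log2 difference was 3.59 ± 0.15 at P24 and 3.45 ± 0.16 at P14. For all 3 genes the libraries of the strains did not overlap, and the lowest F1 value was that of the third seizure library. An F1 animal inherits 1 set of chromosomes from each strain, and reads of the parental alleles were not separated in the counts.

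A gene is called below where edgeR's Benjamini-Hochberg adjusted p over all genes tested was under 0.05.

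Beyond these 3, a smaller strain difference was called at both ages in Rplp0, Rps2 and Rps15a. With Rps3a1, Rpl29 and Rpl3 counted in, 6 members were higher in F1 at P24, where 3.46% of all genes were called higher, and 1 was lower, where 2.87% were. At P14, 8 members were higher, where 2.04% of all genes were, and 0 were lower, where 1.66% were (2 had an unadjusted p under 0.05, and DESeq2 called 8 members in all). These counts are partly fixed by the choice of Rps3a1, Rpl29 and Rpl3. Among the other 81 members, 3 were called higher at both ages, and 1.41% of all genes were. Without the seizure libraries in the fit, which set part of the spread, calls at P24 grew among members, with 11 called, and among all genes, with 2104 of 15690 called, against 7 members and 1008 of 15912 genes with them. Libraries of the strains did not overlap in 6 members higher in F1 (3.30% of all genes) and 1 lower (2.92%) at P24, and in 10 higher (2.35%) and 1 lower (2.13%) at P14.

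Rplp0 is the base of the ribosomal stalk that recruits translation factors (chromosome 5, 115559467 to 115563729, unique share 39.0%). It had 83.2 to 105 CPM in P24 F1 without seizures, with a median of 87.6, and 49.5 to 54.8 CPM in P24 129S6, with a median of 51.5. At P14 it had 129 to 144 CPM in F1 and 82.1 to 87.2 CPM in 129S6. The strains did not overlap at either age. Its log2 difference was 0.81 ± 0.08 at P24 (edgeR adjusted p = 1.96e-09) and 0.68 ± 0.07 at P14 (edgeR adjusted p = 9.22e-08).

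Rps2, a small-subunit protein at the mRNA entrance (chromosome 17, 24718121 to 24721927, unique share 15.1%), averaged 74.7 ± 12.9 CPM in P24 F1 (SD, n = 5) and 47.3 ± 4.96 CPM in P24 129S6 (n = 6). At P14 it averaged 104 ± 9.73 CPM in F1 (n = 6) and 71.1 ± 1.79 CPM in 129S6 (n = 5). It was higher in F1 by 0.68 ± 0.11 and 0.55 ± 0.11 on the log2 scale (edgeR adjusted p = 0.000122 at P24 and 0.00242 at P14). Rps15a (chromosome 7, 118104374 to 118116147, unique share 15.8%) was higher by 0.33 ± 0.06 at both ages, with 78.0 ± 5.94 CPM in P24 F1 and 62.8 ± 2.61 CPM in P24 129S6 (edgeR adjusted p = 0.000549). Its call was lost when libraries were scaled on the members themselves (edgeR adjusted p = 0.175 at P24 and 0.172 at P14), whereas those of Rplp0 and Rps2 were kept. The members' common shift was 0.06 at P24 and 0.04 at P14, smaller than the difference of Rps15a. Why its call was lost was not tested.

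Rpl15, a large-subunit protein with a unique share of 0%, was the member called lower in F1 at P24. It averaged 68.6 ± 4.37 CPM in F1 (SD, n = 5) and 87.8 ± 7.88 CPM in 129S6 (n = 6), a log2 difference of -0.34 ± 0.06 (edgeR adjusted p = 0.000549). At P14 the averages were 91.1 ± 4.89 CPM in F1 and 104 ± 4.41 CPM in 129S6, and the difference of -0.19 ± 0.06 was not called (edgeR adjusted p = 0.105) though the libraries did not overlap.

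Rps6, the S6 kinase substrate of the small subunit (unique share 0%), was called at P14. There it had 5.23 ± 0.925 CPM in F1 and 2.92 ± 0.599 CPM in 129S6 (log2 difference 0.86 ± 0.16, edgeR adjusted p = 0.000652). At P24 its difference was 0.39 ± 0.15 (edgeR adjusted p = 0.127). Rps4l was also called at P14, with 12.9 ± 1.05 CPM in F1 and 8.22 ± 0.552 CPM in 129S6 (edgeR adjusted p = 0.00154). That call was lost when libraries were scaled on the members (edgeR adjusted p = 0.0678), and why was not tested. The change of the strain difference between the ages was called in 0 members by edgeR and in 0 by DESeq2, with 2 members at an unadjusted p under 0.05 and 0.00628% of all genes called higher. The strain difference of neither Rps6 nor Rps4l is therefore shown to depend on age. Of 16 elongation factors and other TOP mRNAs, 2 were called higher and 0 lower in F1 at P24, the larger at 0.65 on the log2 scale, and 1 was higher and 1 lower at P14. Of 77 mitochondrial ribosomal protein genes, 2 were called higher and 3 lower in F1 at P24, and 3 higher and 0 lower at P14.

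**Figure D2:**
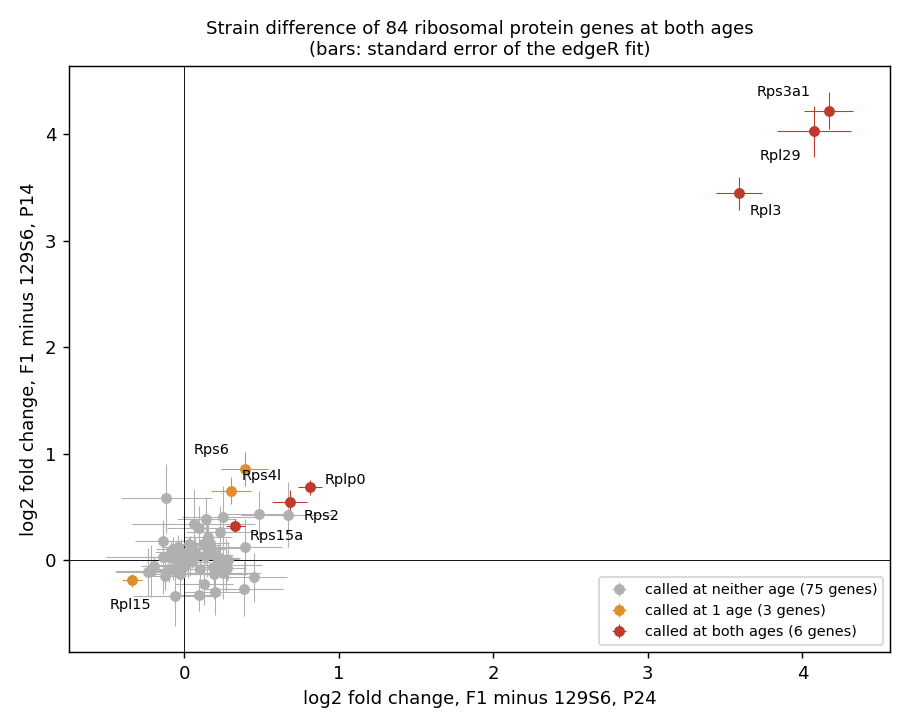
Log2 fold change of each of 84 members, F1 minus 129S6, at P24 (x axis) and at P14 (y axis), with standard errors. Rps3a1, Rpl29 and Rpl3 lie alone between 3.45 and 4.22 on both axes, Rplp0 and Rps2 lie between them and the cloud, and most members lie around 0.

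**Figure D3:**
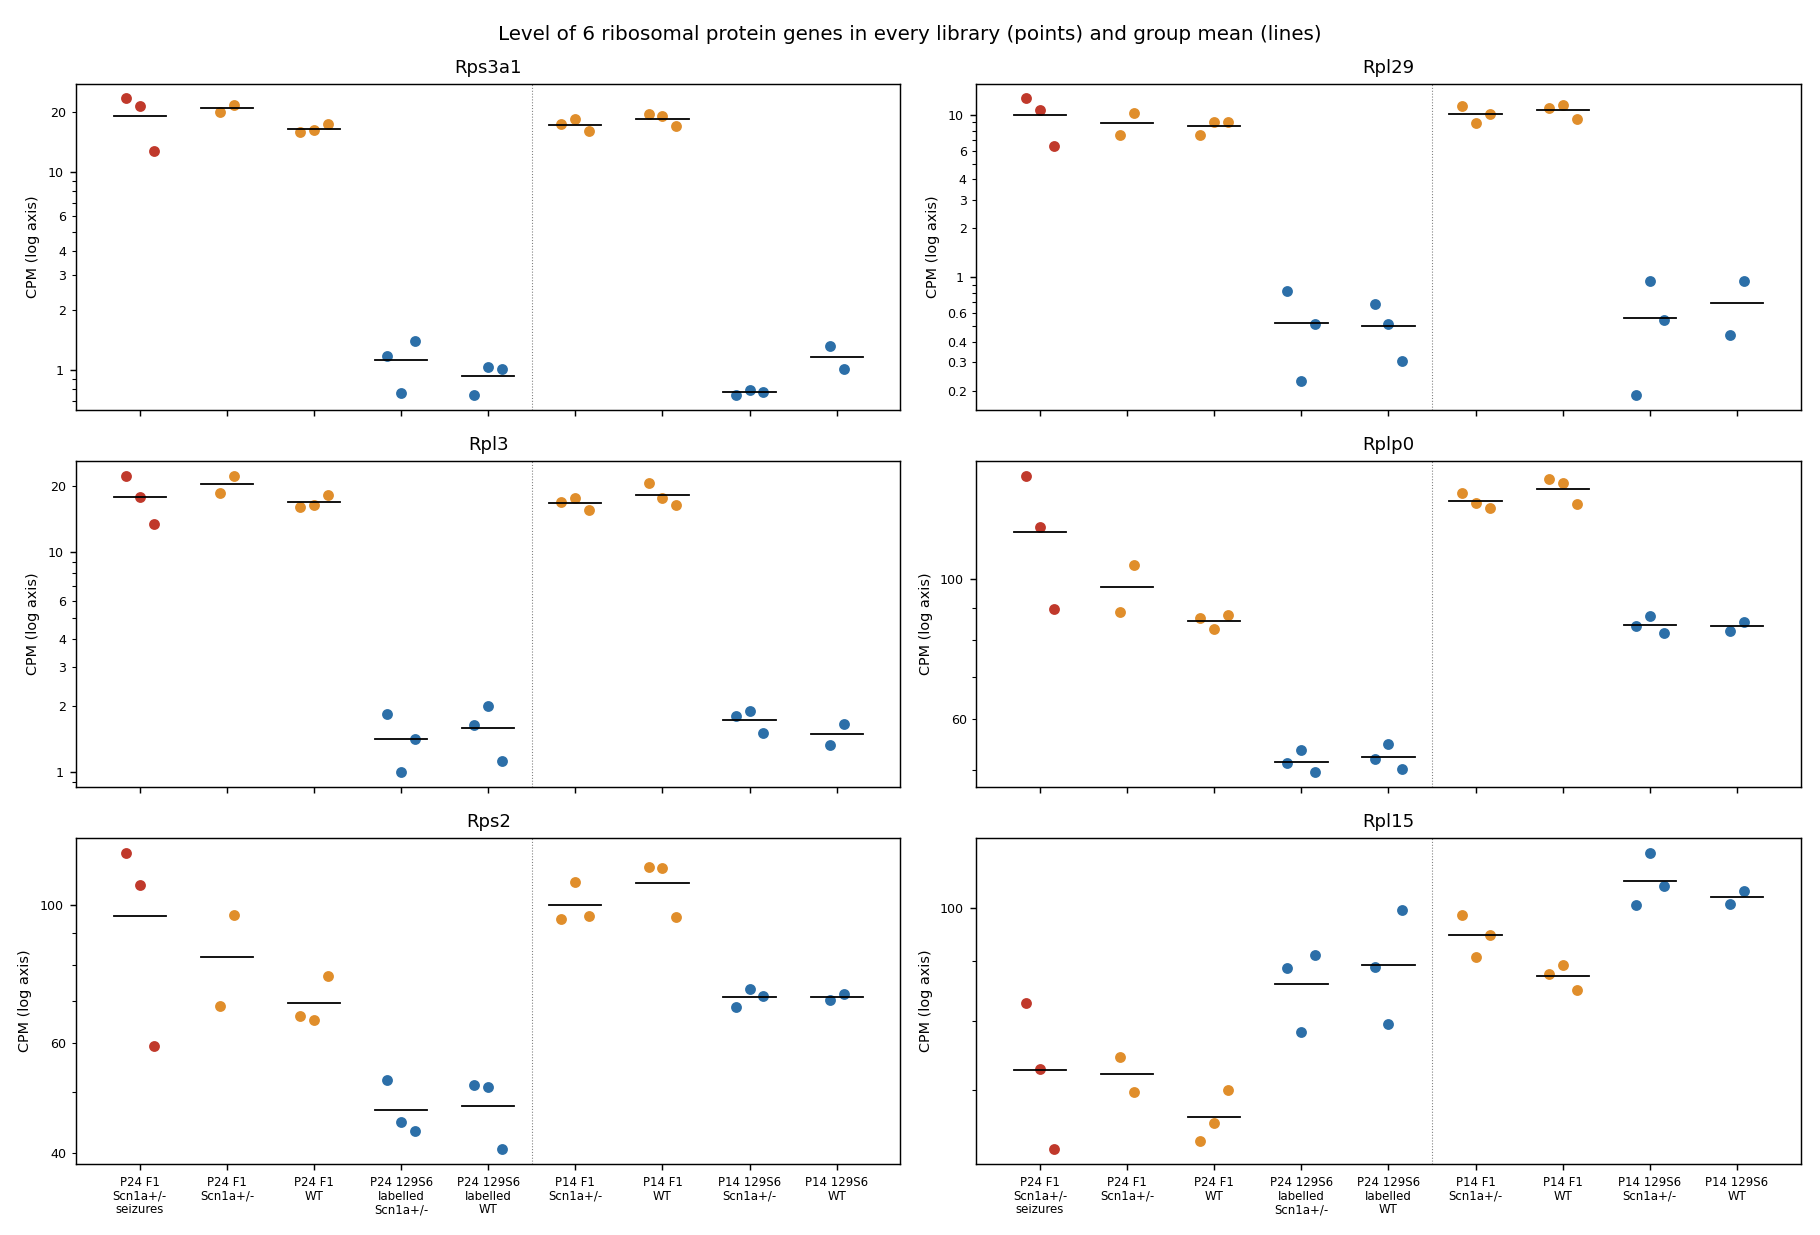
CPM (log axis) of 6 members in every library (points) with group means (lines), P24 groups left and P14 groups right of the dotted line. Rps3a1, Rpl29 and Rpl3 split by strain at either age, while the other genes shown also move with age or with the seizure group.

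Many members had a higher level in the seizure libraries than in wild type, mainly in the first and second of the 3 seizure pools. These groups differ in genotype, seizures and pool size at once, so their parts cannot be told apart in this comparison. In Scn1a+/- mice without seizures the members' median against P24 F1 wild type was 0.23, as given below. In the P24 F1 seizure libraries against P24 F1 wild type, edgeR called 33 of 84 members higher, where 12.4% of all genes were higher. It called 0 members lower, with 0 at an unadjusted p under 0.05 on that side and 10.1% of all genes lower. The members' median was 0.35 on the log2 scale, that of all genes tested was 0.01, and 81 of 84 members were above 0. DESeq2 called 24 members. With only these 6 libraries in the fit 0 members were called, where 1615 of 15562 genes were, and 0 were called with libraries scaled on the members. Both subunits took part, with 15 of 34 small-subunit and 18 of 50 large-subunit symbols called. Of the 17 members with a unique share of 50% or more, 10 were called, and their median was 0.33.

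The seizure pools differed strongly from each other. A summary score, the median over members of the log2 deviation of CPM from each gene's mean over the libraries, was 0.44, 0.33 and -0.20 in the seizure libraries, against -0.14, -0.17 and -0.11 in P24 F1 wild type. The first and second seizure libraries were the highest of all 25 and the third was the lowest. In 16 members, or 19.0%, every seizure library was above every wild-type library, and this held for 15.7% of all genes. Without the third seizure library 54 members were called higher (14.7% of all genes) and the median was 0.51. Without the first, 6 were called (11.2% of all genes), and without the second, 12 (10.3% of all genes).

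**Figure D4:**
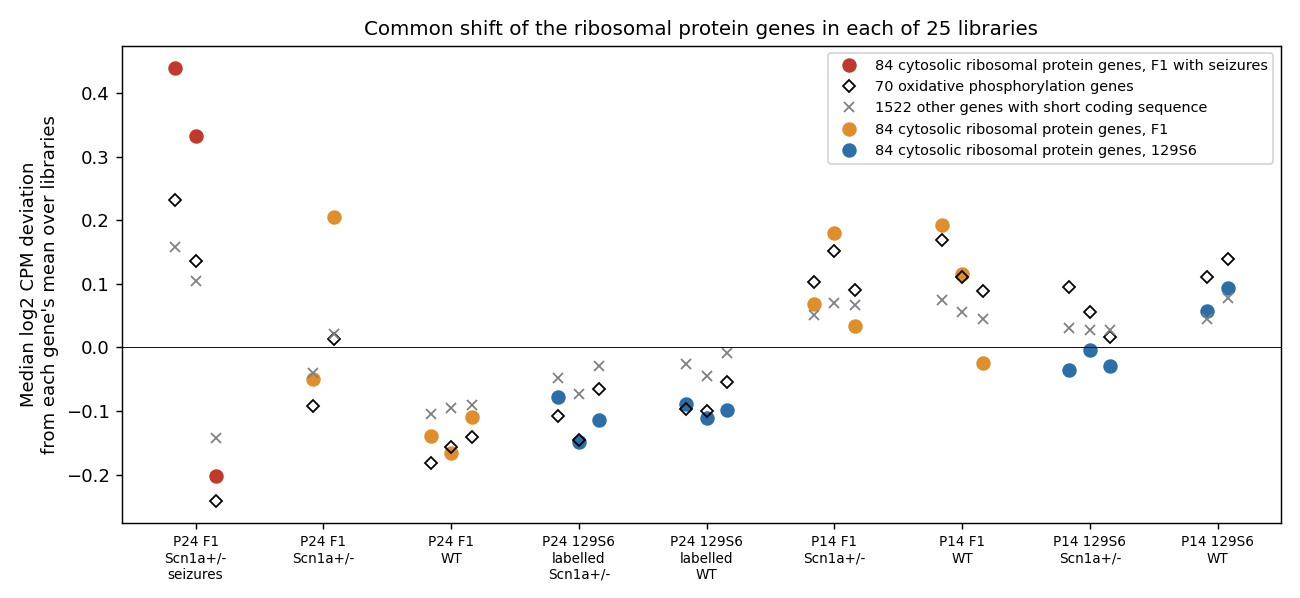
Median log2 CPM deviation of the 84 members in each library (filled points), beside 70 oxidative phosphorylation genes (diamonds) and 1522 other genes with a short coding sequence (crosses), by group. The first and second seizure libraries lie at 0.44 and 0.33 and the third at -0.20, while the other groups lie within -0.17 and 0.20.

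Stalk genes were among the clearest. Rplp0 had 145, 121 and 89.5 CPM in the seizure libraries and 86.6, 83.2 and 87.6 CPM in P24 F1 wild type. All 3 seizure libraries were above wild type, the third by little, and the log2 difference was 0.47 ± 0.10 (edgeR adjusted p = 0.000427). Rplp2, which pairs with Rplp1 on the stalk (chromosome 7, 141447651 to 141451359), had 47.5, 41.8 and 32.7 CPM in the seizure libraries and 28.5 to 32.1 CPM in the 3 wild-type libraries, again without overlap (0.43 ± 0.10, edgeR adjusted p = 0.00165). Rplp1 had 343, 305 and 175 CPM with seizures and 198, 203 and 217 CPM in wild type. It was called (0.41 ± 0.12, edgeR adjusted p = 0.0148) although the third seizure library was below all of wild type. Rpsa, which is also known as the laminin receptor precursor, had 3.95, 4.12 and 2.87 CPM with seizures and 1.96, 2.65 and 3.21 CPM in wild type, with overlap and no call (0.49 ± 0.21, edgeR adjusted p = 0.104).

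Paralogs Rps27l and Rpl22l1 rose more than most members. Rps27l had 21.7, 19.2 and 10.4 CPM in the seizure libraries and 11.0, 11.1 and 10.9 CPM in wild type (log2 difference 0.64 ± 0.16, edgeR adjusted p = 0.00261). Rpl22l1 had 41.2, 44.4 and 20.7 CPM with seizures and 21.0, 22.4 and 25.4 CPM in wild type (0.63 ± 0.15, edgeR adjusted p = 0.00287). In both, the first and second seizure libraries were well above wild type and the third was below the wild-type range. Without the first seizure library the call of Rps27l was lost (edgeR adjusted p = 0.0563). Their partners were not called, with 0.19 ± 0.25 for Rps27 and 0.20 ± 0.10 for Rpl22 (edgeR adjusted p = 0.144 for Rpl22). The difference between paralogs was not tested. Rpl36al was called (0.47 ± 0.13, edgeR adjusted p = 0.00752) and Rpl36a, at 0.18 ± 0.28, was not. Rpl7 and Rpl7l1 were both called, at 0.31 ± 0.09 and 0.25 ± 0.08 (edgeR adjusted p = 0.0154 for Rpl7 and 0.0223 for Rpl7l1).

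Farthest above the common shift were 3 members of low count. Rps29, a zinc-finger protein of the small subunit, had 3.46, 3.76 and 2.29 CPM with seizures and 2.14, 1.81 and 1.65 CPM in wild type, without overlap (0.76 ± 0.24, edgeR adjusted p = 0.0221). Rps25, needed by some viral internal ribosome entry sites, had 3.46, 5.18 and 2.53 CPM with seizures and 2.94, 1.81 and 2.29 CPM in wild type (0.66 ± 0.23, edgeR adjusted p = 0.0348). Rpl38, known for its part in axial patterning of the mouse skeleton, had 6.43, 11.5 and 3.26 CPM with seizures and 4.94, 3.96 and 4.54 CPM in wild type (0.66 ± 0.23, edgeR adjusted p = 0.0411). The seizure and wild-type ranges of Rps25 and Rpl38 overlapped, and DESeq2 called neither. Leaving out the second seizure library ended the calls of Rps29 (edgeR adjusted p = 0.109), Rps25 (0.335) and Rpl38 (0.734), and so did leaving out the second or the third wild-type library; for Rps29 the first seizure library did too (0.0759), and for Rpl38 the first wild-type library (0.0649). Far below it lay Rpl3l at -0.33 ± 0.48 and Rps4l at -0.04 ± 0.15, neither of them called. The strain outliers did not stand apart here, with 0.22 ± 0.14 for Rps3a1, 0.22 ± 0.20 for Rpl29 and 0.09 ± 0.14 for Rpl3.

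Other gene groups moved in the same libraries. Of 77 mitochondrial ribosomal protein genes 19 rose and 0 fell in the seizure group against wild type, with a median of 0.19, led by Mrps6 (1.16 ± 0.11) and Mrpl39 (0.42 ± 0.09). Of 70 oxidative phosphorylation subunits 30 rose and 0 fell, with a median of 0.22, Ndufc2 (0.61 ± 0.09) and Ndufa12 (0.54 ± 0.11) among them. Their score was 0.23, 0.14 and -0.24 in the seizure libraries and -0.18 to -0.14 in wild type, so the third seizure library was below wild type here too. Of 16 elongation factors and other TOP mRNAs only Tpt1 (0.85 ± 0.11) and Pabpc1 (0.33 ± 0.07) rose. Among 36 initiation factors 10 rose and 1 fell (median 0.12), and among 64 ribosome biogenesis genes 6 rose and 0 fell (median 0.12). Of 21 genes of mTOR and Myc control, 3 rose, among them Rheb (0.61 ± 0.08), the activator of mTORC1, and Eif4ebp1 (1.14 ± 0.19), a repressor of cap-dependent translation, and 2 fell, Mxd4 and Tsc1. Another 1522 tested genes had a coding sequence under 600 bases, the length class of most members. They leave out the members, the oxidative phosphorylation subunits and the mitochondrial ribosomal protein genes, but not the other groups above. Their median was 0.15, with 337 higher and 59 lower. Over the 25 libraries, which include all groups, the members' score correlated with that of oxidative phosphorylation (r = 0.85, rho = 0.91), mitochondrial ribosomal proteins (r = 0.78, rho = 0.80) and these short genes (r = 0.88, rho = 0.91). The part of coding length in the members' rise was not tested.

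Cell type markers moved too. In the seizure group 4 of 12 microglial markers rose and 0 fell against wild type, and their summed level was 540 to 693 CPM with seizures and 536 to 581 CPM in wild type. Of 12 oligodendrocyte and precursor markers 0 were higher and 7 lower, with sums of 11010 to 16981 CPM with seizures and 14915 to 17189 CPM in wild type. Among the other lists, 5 of 12 neuron markers were higher and 1 lower, 4 of 10 astrocyte markers higher and 4 lower, 2 of 10 excitatory neuron markers higher and 3 lower, 2 of 12 endothelial and pericyte markers higher and 2 lower, and 1 of 8 choroid plexus markers lower. Of the 7 blood cell markers only 2 were measured well enough to be tested, and neither was called. In these bulk samples a change in the share of a cell type and a change in RNA per cell cannot be told apart, and the part of cell composition in the members' rise was not tested.

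Against Scn1a+/- mice of the same strain and age without seizures, the members' difference was smaller in size. EdgeR called 0 members, where 8.72% of all genes were higher and 7.00% lower; 7 members had an unadjusted p under 0.05, and DESeq2 called 0. The median was 0.11, and 5 members were above in every seizure library (16.0% of all genes were) and 2 below (16.0%). Scores of the seizure-free Scn1a+/- libraries, -0.05 and 0.20, fell inside the range of the seizure libraries. Without the third seizure library 27 members were called higher (8.78% of all genes) with a median of 0.30, and without the first 0 were called with a median of -0.06. Rps28, Rps10 and Rps13, small-subunit proteins, lay farthest above at 0.71 ± 0.52, 0.70 ± 0.33 and 0.54 ± 0.38, and Rpl11 and Rpl21 lay far below at -0.48 ± 0.33 and -0.31 ± 0.20.

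No member was called between Scn1a+/- mice without seizures and wild type, in either strain or at either age. In P24 F1, Scn1a+/- libraries against wild type gave 0 calls among members and 0% of all genes by edgeR, 22 members at an unadjusted p under 0.05 of which 21 were higher, and 0 calls by DESeq2. The members' median was 0.23, that of all genes tested was within 0.01 of 0, and 76 members were above 0. The median was 0.0641 without the second Scn1a+/- library and 0.35 without the first. Other groups moved the same way without a call: the median was 0.09 in the 1522 short genes, of which 1049 were above 0, 0.14 in 70 oxidative phosphorylation subunits, of which 55 were above 0, and 0.16 in 16 elongation factors and other TOP mRNAs, of which 15 were. Of the 12 microglial markers 12 were above 0, and of the 12 neuron markers 1 was. Scores of oligodendrocyte and precursor markers were 0.29 and 0.38 in Scn1a+/- and 0.45 to 0.65 in wild type. Those of hippocampal excitatory neuron markers were -0.00235 and 0.00667 in Scn1a+/- and 0.05 to 0.16 in wild type. Scores of all other marker lists, microglial and neuron markers among them, overlapped between these groups. The part of these in the members' shift was not tested. Both Scn1a+/- libraries were above all 3 wild-type libraries in 37 members, where 14.3% of all genes were, and below in 1, where 14.8% were. Rplp0 had 88.6 and 105 CPM in Scn1a+/- and 86.6, 83.2 and 87.6 CPM in wild type, and Rplp1 had 223 and 265 CPM in Scn1a+/- and 198, 203 and 217 CPM in wild type. The second Scn1a+/- library was the higher one in both genes, and in both the groups did not overlap. Differences were 0.18 ± 0.11 for Rplp0 and 0.24 ± 0.14 for Rplp1.

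The spread used in that test is shared with the seizure libraries. When they were left out of the fit, 16 members were called in P24 F1, all higher in Scn1a+/-, where 0.586% of all genes were called higher. Among these were Rpl4, Rpl7, Rpl14, Rpl22, Rpl32, Rpl37rt, Rpl39, Rpl41, Rplp1, Rps3, Rps7, Rps14, Rps18, Rps19 and Rps21, with log2 differences such as 0.46 for Rps19, mutated in Diamond-Blackfan anaemia, and 0.21 for Rpl4. With all libraries, the members farthest above were Rpl21 (0.70 ± 0.20), Rpl11 (0.66 ± 0.34), an inhibitor of Mdm2, and Rps25 (0.65 ± 0.27), and those farthest below were Rps4l (-0.44 ± 0.19), Rps13 (-0.18 ± 0.38) and Rps28 (-0.16 ± 0.54), all at an edgeR adjusted p of 0.833 or more. Only 2 Scn1a+/- libraries stand behind these values.

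In P24 129S6, as labelled, the median was -0.04 between Scn1a+/- and wild type, with 0 members and 0% of all genes called by edgeR, 1 member at an unadjusted p under 0.05 and 0 calls by DESeq2. All libraries were apart in 1 member upward (5.84% of all genes) and 8 downward (4.88%). Rps28 (0.82 ± 0.50) lay highest and Rpl17 (-0.84 ± 0.30) lowest. In P14 F1 the median was -0.03, with 0 members and 0% of all genes called by edgeR, 1 member at an unadjusted p under 0.05 and 0 by DESeq2. There 1 member was apart upward (6.72%) and 4 downward (6.00%), with Rpl11 (0.32 ± 0.35) highest and Rpl30 (-0.74 ± 0.38) lowest.

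In P14 129S6 the median was -0.08, with 0 members and 0% of all genes called by edgeR, 3 members at an unadjusted p under 0.05 and 0 by DESeq2. In 25 members all 3 Scn1a+/- libraries were below both wild-type libraries, where 9.38% of all genes were, and in 3 they were above, where 9.59% were. The scores ran from -0.0356 to -0.00361 in the 3 Scn1a+/- libraries and from 0.0575 to 0.0934 in the 2 wild-type ones, so they did not overlap. Rpl11 was lowest, with 0.376, 0.633 and 1.04 CPM in Scn1a+/- and 1.69 and 1.77 CPM in wild type (-1.20 ± 0.38). This is a low count, and at edgeR's adjusted p of 1 it was not called.

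Differences between these genotype effects were not called in any member. For the effect in F1 minus that in 129S6 as labelled at P24, 70 members were above 0 with a median of 0.28, and edgeR called 0, with 11 at an unadjusted p under 0.05, 0% of all genes called higher and 0.00628% lower. For the effect at P24 minus that at P14 in F1, 76 members were above 0 with a median of 0.27, and edgeR called 0, with 7 at an unadjusted p under 0.05 and 0% of all genes. The first of these rests on the P24 129S6 labels that Scn1a goes against. DESeq2 was not run on these contrasts. At P14, the effect in F1 minus that in 129S6 had a median of 0.06 with 0 members called and 1 at an unadjusted p under 0.05. In 129S6, the effect at P24 as labelled minus that at P14 had a median of 0.03 with 0 called and 3 at an unadjusted p under 0.05. Comparisons that share a group use the same libraries.

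**Figure D5:**
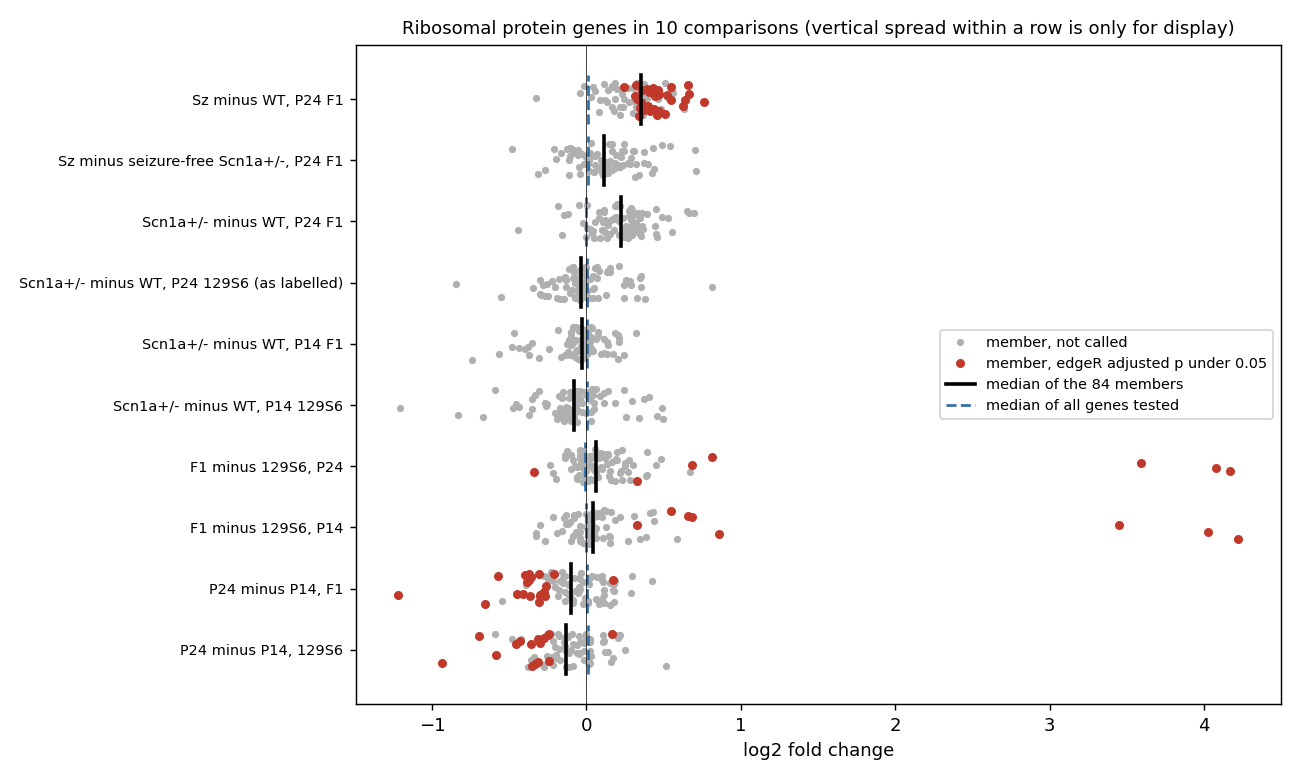
Log2 fold change of each member (points, red where edgeR's adjusted p was under 0.05) in 10 comparisons, with the median of the 84 members (solid bar) and of all genes tested (dashed bar). The seizure comparison with wild type has its median at 0.35 and 33 red points, the age comparisons have most of their red points below 0, and the strain comparisons have 3 points between 3.45 and 4.22.

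With age some members fell, at a share close to that of all genes. In F1, P24 against P14 called 20 members lower, where 19.4% of all genes were lower, and 1 higher, where 19.0% were, so the members' total was below the background and their direction was mostly down. The median was -0.10 in members, 0.00 in all genes tested and -0.11 in the 1522 other genes with a coding sequence under 600 bases, of which 138 were called higher and 474 lower. Without the first P24 F1 Scn1a+/- library the members' median was -0.0256, and without the second -0.19. In 129S6 it called 15 members lower (17.1% of all genes) and 1 higher (17.3%), with a median of -0.13 in members and -0.08 in the short genes, of which 150 were higher and 386 lower. DESeq2 called 19 members in F1 and 15 in 129S6. Called lower in both strains were 14 members, or 16.7% of the members against 13.0% of all genes.

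Rplp0 had the smallest adjusted p of the members in both strains. It had 83.2 to 105 CPM in P24 F1 without seizures and 129 to 144 CPM in P14 F1, a log2 difference of -0.57 ± 0.07 (edgeR adjusted p = 2.02e-07). In 129S6 it had 49.5 to 54.8 CPM at P24 and 82.1 to 87.2 CPM at P14 (-0.70 ± 0.08, edgeR adjusted p = 8.86e-09). The ages did not overlap in either strain. Rplp2, also of the stalk, fell by 0.38 in F1 (edgeR adjusted p = 0.000236) and by 0.33 in 129S6 (edgeR adjusted p = 0.00108), whereas Rplp1 was called in neither.

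Rpl15 averaged 68.6 ± 4.37 CPM in P24 F1 (SD, n = 5) and 91.1 ± 4.89 CPM in P14 F1 (n = 6). It fell by 0.40 in F1 (edgeR adjusted p = 8.25e-06) and by 0.25 in 129S6 (edgeR adjusted p = 0.00259). Rps2 fell by 0.45 and 0.59 (edgeR adjusted p = 0.00171 in F1 and 0.000151 in 129S6), and Rpl22 by 0.27 and 0.24 (0.0043 and 0.0112). Rpl41, the smallest ribosomal protein, was lower in 129S6 at P24 by a log2 difference of -0.45 ± 0.11 (edgeR adjusted p = 0.00221) and was also called lower in F1. Of the paralogs, Rps27l fell by 0.37 in F1 and 0.36 in 129S6 (edgeR adjusted p = 0.0191 in F1 and 0.023 in 129S6), while Rpl22l1, at 0.15 ± 0.13 in F1 and 0.17 ± 0.12 in 129S6, was not called. Whether they differ was not tested.

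Rps15a was the 1 member called higher with age, by 0.17 ± 0.06 in F1 (edgeR adjusted p = 0.0287) and by 0.17 ± 0.06 in 129S6 (0.0378). It had 72.4 to 87.7 CPM in P24 F1 and 62.8 to 77.5 CPM in P14 F1, with overlap, and 60.3 to 67.3 CPM in P24 129S6 and 48.9 to 59.0 CPM in P14 129S6, without overlap. That call is fragile: it was lost in 5 of the 11 fits with 1 F1 library left out, at 0.13 to 0.16, and in 7 of the 11 with 1 library of 129S6 left out, at 0.13 to 0.17. Rpl3l, the muscle paralog, was lowest relative to the shift at -1.22 ± 0.36 in F1 and -0.93 ± 0.37 in 129S6 (edgeR adjusted p = 0.00702 in F1 and 0.0468 in 129S6), with means of 0.477 CPM in P24 F1 and 1.12 CPM in P14 F1. Its call was lost in F1 without the second Scn1a+/- library of P24, and in 129S6 in 7 of 11 fits with a library left out and by DESeq2. Rpsa fell in F1, with 2.58 ± 0.550 CPM at P24 and 4.15 ± 0.929 CPM at P14 (-0.66 ± 0.18, edgeR adjusted p = 0.00341), and was not called in 129S6 (-0.34 ± 0.17, edgeR adjusted p = 0.138). Farthest above the shift without a call lay Rpl19 (0.43 ± 0.22) in F1 and Rpl24 (0.52 ± 0.32) in 129S6.

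Fewer members were called with age on a scale that removes their common shift by construction. The main fit had called 20 lower and 1 higher in F1, and 15 lower and 1 higher in 129S6. With libraries scaled on the members themselves, the median of all genes moved to 0.12 in F1 and 0.14 in 129S6. The members called then numbered 11 in F1 and 8 in 129S6. The share of all genes called on that scale is not given here, so these counts have no background beside them. Rplp0, Rps2, Rps15a and Rpl39 were called in both strains on that scale in the same direction as before. Rpl22l1 and Rps21 were called higher on it, at 0.28 and 0.29 in F1 and at 0.31 and 0.29 in 129S6.

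Other groups moved with age as well. Of 70 oxidative phosphorylation subunits 43 fell and 0 rose in F1 (median -0.22), and 35 fell and 0 rose in 129S6 (median -0.20). Of 77 mitochondrial ribosomal protein genes 24 fell and 0 rose in F1, and 12 fell and 2 rose in 129S6. Among 36 initiation factors 12 fell and 1 rose in F1, and 7 fell and 2 rose in 129S6. Ribosome biogenesis genes were mixed, with 6 of 64 higher and 5 lower in each strain. Oligodendrocyte markers summed to 14915 to 17189 CPM in P24 F1 wild type and 7581 to 8713 CPM in P14 F1 wild type, and 8 of the 12 rose with age and 4 fell in either strain. Whether these markers reflect cell makeup or RNA per cell cannot be told apart here, and the part of cell makeup in the members' fall was not tested.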

How the data were processed

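The authors deposited raw gene counts, 1 file per library, covering 24421 gene symbols and no unnamed line. Tools in the submitters' processing notes are HTSeq 0.6.1p1, TopHat2 2.1.0 and CASAVA, with mm10 as the build. Not given in the sources used here are the gene annotation, the strand setting and the treatment of reads with several matches. Per the labels' protocols, libraries were made with TruSeq RNA Library Preparation Kit v2, which does not mark strand, so overlapping and antisense genes cannot be told apart. The authors' normalized table was not used here.

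Members and gene lists were chosen with earlier results of these data known. Counts of all genes entered edgeR 4.0.16 in R 4.3.3 (with limma 3.58.1), quasi-likelihood, 1 coefficient for each of 9 groups, TMM scaling and filterByExpr (minimum count 10), which left 15912 genes. P-values were Benjamini-Hochberg adjusted over them all, and the biological coefficient of variation was 7.57%. CPM uses the effective library size, except in the rule for members and for symbols with the pseudogene ending, where the raw total is used. DESeq2 1.42.0 was an alternative, and others were member scaling, other filters, the compared groups alone and each library left out. The steps were tested on simulated data. Strain and age contrasts leave out the seizure group.

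Groups follow titles and characteristics. The labels do not say whether pools came from separate litters or days, and the p-values cover only the spread from pool to pool. Of 23 pairs of libraries within groups 0 held identical counts, and each pair differed by more than sampling noise (chi-square per degree of freedom 2.38 to 38.1). Named members are those of the strain rule, the 3 farthest above and below the members' median in a comparison, up to 4 called in each direction with the smallest adjusted p, paralogs with their partners, the 3 highest and lowest per kilobase and the stalk genes with Rpsa; for other lists, up to 2 called genes. A few results that this rule would name are not reported here. Members the text lists beyond these were chosen after their values were seen.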

Additional observations from a re-analysis of the deposited data

Results flagged for a closer look

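The members farthest above or below the members' median in a genotype comparison were checked for opposite genotype effects in a pair of groups. In 2 of them the effects ran in opposite directions in every library. Other members were not part of that check. Rps3, Rps14 and Rps19 among them did so too, in P24 F1 against P24 129S6 as labelled. Rpl11, a large-subunit protein that binds Mdm2, had 2.08 and 1.78 CPM in Scn1a+/- and 1.38, 1.22 and 1.01 CPM in wild type in P24 F1, a log2 difference of 0.66. In P24 129S6 it had 1.09, 0.995 and 1.03 CPM in the libraries labelled Scn1a+/- and 1.43, 1.27 and 1.11 CPM in those labelled wild type, a log2 difference of -0.30. Scn1a goes against the labels of these 129S6 libraries. With those labels turned round the 129S6 difference of Rpl11 would change sign and run the same way as in F1. Rpl21, a large-subunit protein, had 4.94 and 5.00 CPM in Scn1a+/- and 2.94, 2.86 and 3.39 CPM in wild type in P24 F1 (0.70). In P14 F1 it had 2.92, 3.36 and 2.31 CPM in Scn1a+/- and 3.91, 5.09 and 3.48 CPM in wild type (-0.57). None of these effects was called by itself. The difference of the effects was 0.96 ± 0.48 for Rpl11 and 1.26 ± 0.29 for Rpl21, and edgeR's interaction contrast over all genes called neither (edgeR adjusted p = 0.764 for Rpl11 and 0.877 for Rpl21).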

How the results depend on the processing

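Scaling the libraries on the members removes their common shift by construction and moves the median of all genes to -0.30 in the seizure group against wild type. The members' median was then -0.0177 there, -0.0211 for the seizure group against seizure-free Scn1a+/-, -0.00422 for Scn1a+/- against wild type in P24 F1, -0.0256 for F1 minus 129S6 at P24 and -0.0276 at P14, and 0.0163 for P24 minus P14 in F1 and 0.000629 in 129S6. On that scale 0 members were called for seizures against wild type, 11 for age in F1 and 8 for age in 129S6. The share of all genes called on it is not given here. With only the compared groups in the fit, 0 members were called for seizures against wild type (1615 of 15562 genes were). In that setting 11 were called for strain at P24, with the share of all genes not given here. Without the seizure libraries 16 were called for Scn1a+/- against wild type in P24 F1 and 11 for strain at P24, beside the calls over all genes given above. With no filter on low counts 2 were called for seizures against seizure-free Scn1a+/-, again with the share of all genes not given here. Members with a unique share of 50% or more had a median of -0.22 for age in F1, a subset chosen after seeing the data. The cause of these moves was not tested.

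With each library left out in turn, calls ran from 6 to 54 and the median from 0.21 to 0.51 for seizures against wild type, and from 0 to 27 and -0.0599 to 0.30 against seizure-free Scn1a+/-. For Scn1a+/- against wild type in P24 F1, calls stayed at 0 and the median ran from 0.0641 to 0.35. The other genotype medians ran from -0.06 to -0.01 in P24 129S6, -0.08 to 0.03 in P14 F1 and -0.09 to -0.05 in P14 129S6. For strain, calls ran from 7 to 8 at P24 and stayed at 8 at P14, with medians of 0.000317 to 0.12 and 0.02 to 0.07. For age, calls ran from 14 to 21 in F1 and 10 to 17 in 129S6, with medians of -0.19 to -0.0256 and -0.14 to -0.11. For the strain difference at P24 minus that at P14, calls stayed at 0 and the median ran from -0.07 to 0.06. Single named members were followed only where the main fit called them. Of these tests, 397 kept their direction and the call, 54 lost the call and 0 changed sign. The tally includes the strain differences of Rps3a1, Rpl29 and Rpl3, which were chosen for them, so it is partly fixed by that choice. No paired analysis was possible because the numbers in the titles run over the whole series and pair no libraries. With no CPM minimum there were 88 members, and at a minimum of 5 CPM there were 60. Depth limits members near 1 CPM, and the 3 strain outliers had as few as 2 counts in a 129S6 library.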

Other observations

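Symbols with the pseudogene ending were left out of the members, and their values were looked at after those of the members were seen. Their F1 averages take in the seizure libraries, whereas the log2 differences leave these out. Rps15a-ps4, a processed copy of Rps15a, averaged 5.77 CPM in F1 and 1.69 CPM in 129S6, and was called higher in F1 at both ages (log2 difference 1.75 at P24 and 1.74 at P14, edgeR adjusted p = 1.26e-06 and 4.34e-06). Rps15a-ps6, another copy, averaged 3.73 CPM in F1 and 8.05 CPM in 129S6, and was called lower (-1.20 and -1.16, edgeR adjusted p = 1.81e-06 and 4.79e-06). Copies of the same gene thus went opposite ways between the strains, while Rps15a itself differed by 0.33. Rpl14-ps1 was counted at 115 CPM in F1 and 111 CPM in 129S6 and was not called. Reads of a parent gene and of such copies can match both, and how the counting divided them is not given in the sources used here.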
